A study of Rattus norvegicus with 30 samples.

Results

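The part of the heart transcriptome described here is a set of 10 cardiac potassium channel genes, chosen by name: Kcnip2, Kcnd2, Kcnd3, Kcna5, Kcnq1, Kcnh2, Kcnj2, Kcnj11, Kcnk3 and Kcnk2. The choice was made with earlier results of these data known. Shares of all genes set beside their counts below are therefore a description and no test of the set. The 10 genes are read by 20 of the 31042 probe sets of the array that are not controls. Of these, 19 were bright enough to be tested, with at least 1 for each gene. Hearts came from male rats of the Crl:Wi(Han) strain, an outbred Wistar stock, that received a single dose of vehicle or of isoproterenol, a synthetic agonist of beta-adrenergic receptors. The sample labels give the isoproterenol dose as 0.5 mg/kg/ml, and the design text states its unit in another way, so the unit is not settled. Vehicle hearts were sampled 1, 3, 24 and 72 h later with 3 arrays at each time, and isoproterenol hearts at the same times with 5, 4, 4 and 5 arrays. The last time is 72 h in the sample labels and 48 h in the design text, and the labels were followed. The labels name no engineered allele in these rats, and their age was not given in the sources used here. Every array is titled a biological replicate.

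Potassium channels carry the outward currents that end the action potential of a heart muscle cell and hold its resting potential. The transient outward current, which makes the early notch of the action potential, flows through the pore subunits Kv4.2 and Kv4.3, encoded by Kcnd2 and Kcnd3, with the accessory protein KChIP2, encoded by Kcnip2. Delayed rectifiers (Kcna5, Kcnq1, Kcnh2), inward rectifiers (Kcnj2, and Kcnj11 of the ATP-sensitive channel) and background channels of the tandem-pore family (Kcnk3, Kcnk2) act later in the action potential or at rest. Lower levels of several of these transcripts are a known feature of the stressed and hypertrophied heart.

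Every value below is a level on the normalized log2(intensity + 16) scale or a difference of such levels, isoproterenol minus vehicle, with its standard error (SE). This scale understates changes of dim probe sets, and levels of different genes cannot be set against each other on it. A change was called when the adjusted p of the limma moderated test was under 0.05. Arrays are numbered 4 to 21 in vehicle and 33 to 62 in isoproterenol hearts, and the numbers also rise with time within each treatment. Whatever the number stands for cannot be told apart from treatment and time. Array medians of the deposited intensity lay between 21.2 and 70.3. The rat behind each array was not given in the sources used here, so p-values cover the spread between arrays, which may be technical. In a bulk heart sample, fewer cells of a type and less RNA per cell cannot be told apart.

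Most of these genes were lower in isoproterenol hearts at 24 or 72 h. None of the 10 was called at 1 h, when 1.04% of all 12451 genes tested were called lower. At 3 h, 1 was called lower (Kcnj11), against 6.33% of all genes. At 24 h, 5 were called lower (Kcnip2, Kcnd2, Kcnd3, Kcnj11 and Kcnk2), against 7.19% of all genes. At 72 h, those 5 were called again, and so were Kcna5 and Kcnk3, which made 7, against 8.71% of all genes. Neither Kcna5 nor Kcnk3 had an effect that differed between 24 and 72 h (limma adjusted p = 0.613 and 0.264). The 72 h count was 4 with vehicle replicate 1 or isoproterenol replicate 3 left out and 4 in a fit to the arrays of that time only. The 24 h count was 2 where the mean of a gene's probe sets replaced the brightest one. None was called higher at any time, against 2.37%, 6.94%, 10.0% and 13.3% of all genes in order of time. The median difference of the 10 genes was 0.07 at 1 h, -0.50 at 3 h, -0.77 at 24 h and -0.73 at 72 h, beside -0.03, -0.06, -0.01 and 0.01 over all genes.

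**Figure D1:**
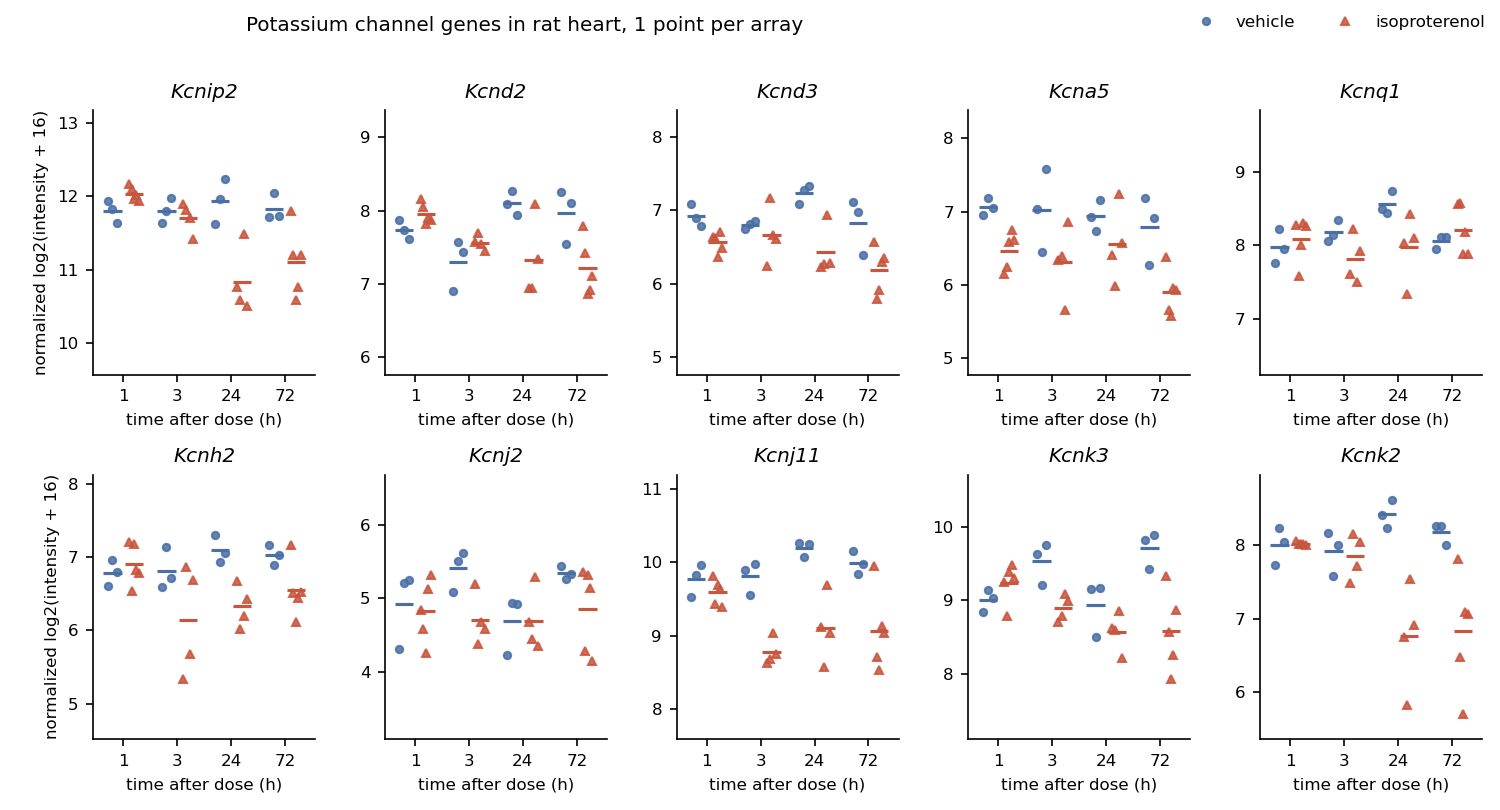
Level of each of the 10 genes on each of the 30 arrays (vertical axis, normalized log2 of intensity + 16) by time after the dose in hours, with vehicle arrays as circles, isoproterenol arrays as triangles and group means as bars. Each panel spans the same number of log2 units. Isoproterenol arrays of Kcnip2, Kcnj11 and Kcnk2 at 24 h all lie below the vehicle arrays, and 1 isoproterenol array stands near the vehicle level at 24 h and another at 72 h in most panels.

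All isoproterenol arrays lay below all vehicle arrays for 2 genes at 1 h, 2 at 3 h, 6 at 24 h and 2 at 72 h, beside 8.54%, 11.2%, 12.5% and 7.34% of all genes. At 24 h, all 10 differences were negative. The moderated F test of any isoproterenol effect over the 4 times called 8 of the 10 genes, against 38.7% of all genes. Kcnq1 (limma adjusted p = 0.120) and Kcnj2 (0.245) did not pass it. Among the vehicle groups alone, none of the 10 differed between times by the moderated F test (limma adjusted p 0.276 to 0.979), against 0.0562% of all genes called.

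RefSeq (build GRCr8) gave start sites for 6 of the 10 genes, in 7 entries since Kcnk2 has a pair of them. Upstream sequence is shown for Kcnip2, Kcnd2, Kcnd3 and Kcnk2, the genes with an entry that were called lower at both late times, because the letters of known motifs in it can be set beside the factors measured here. Each run holds the 250 bases before the start site, 5′ to 3′ on the gene's strand, with every match to CACCC on either strand in capitals. CACCC is the core letters bound by Krüppel-like factors such as Klf15, which is known to act on Kcnip2.
Kcnip2, chr1:254613899-254614148, minus strand: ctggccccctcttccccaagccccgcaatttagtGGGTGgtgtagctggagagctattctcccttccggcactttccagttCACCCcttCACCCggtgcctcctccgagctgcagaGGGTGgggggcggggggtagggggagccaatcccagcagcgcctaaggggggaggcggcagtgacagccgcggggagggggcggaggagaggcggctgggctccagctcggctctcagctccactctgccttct
Kcnd2, chr4:50742235-50742484, plus strand: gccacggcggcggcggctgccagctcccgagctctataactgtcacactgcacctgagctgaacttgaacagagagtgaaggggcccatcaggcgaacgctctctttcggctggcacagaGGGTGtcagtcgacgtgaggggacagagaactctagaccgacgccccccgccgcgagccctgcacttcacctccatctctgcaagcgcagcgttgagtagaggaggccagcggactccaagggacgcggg
Kcnd3, chr2:195626066-195626315, plus strand: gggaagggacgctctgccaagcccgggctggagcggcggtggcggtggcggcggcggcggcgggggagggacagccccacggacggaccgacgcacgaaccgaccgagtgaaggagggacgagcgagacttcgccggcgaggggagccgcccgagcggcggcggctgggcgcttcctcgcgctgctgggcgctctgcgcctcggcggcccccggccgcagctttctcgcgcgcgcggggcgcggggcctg
Kcnk2, chr13:103438643-103438892, minus strand: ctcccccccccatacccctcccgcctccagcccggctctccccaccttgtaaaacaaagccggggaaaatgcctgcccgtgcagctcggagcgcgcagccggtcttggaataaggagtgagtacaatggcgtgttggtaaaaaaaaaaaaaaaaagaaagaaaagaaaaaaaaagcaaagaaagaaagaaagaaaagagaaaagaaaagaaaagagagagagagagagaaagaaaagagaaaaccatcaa
Kcnk2, chr13:103494687-103494936, minus strand: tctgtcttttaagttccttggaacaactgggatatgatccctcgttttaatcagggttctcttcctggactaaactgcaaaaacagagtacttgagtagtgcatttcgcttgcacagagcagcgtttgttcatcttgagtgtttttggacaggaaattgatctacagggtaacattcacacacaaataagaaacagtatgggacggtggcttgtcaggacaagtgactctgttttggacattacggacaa

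CACCC stood 4 times before Kcnip2, 1 time before Kcnd2, and not in the run before Kcnd3 or in either run before Kcnk2. It was in 4 of the 7 upstream runs of the set, beside 49.2% of all 33469 RefSeq upstream runs of 250 bases. GGGCGG, the GC box, was in 3 of the 7, beside 30.5%. TGACG, the core of the cAMP response element, and TGANTCA, the AP-1 site, were in 0 of the 7, beside 18.2% and 6.34% of all runs. The 4 motifs were searched separately on both strands, so matches could share bases, and a match is only a match of letters.

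Kcnip2, the accessory subunit that traffics Kv4 channels to the membrane, was lower at 24 and 72 h and not called at 1 or 3 h. Its brightest probe set stood at 11.94, 11.82 and 11.63 in vehicle hearts at 1 h and at 12.16, 12.09, 11.96, 12.02 and 11.93 in isoproterenol hearts. At 3 h the levels were 11.63, 11.80 and 11.98 against 11.89, 11.81, 11.70 and 11.41. The groups overlapped at both early times. At 24 h vehicle arrays stood at 11.62, 11.96 and 12.23 and isoproterenol arrays at 10.76, 10.58, 11.49 and 10.50. At 72 h the levels were 11.72, 12.05 and 11.72 against 11.80, 11.20, 10.59, 10.77 and 11.20. All 4 isoproterenol arrays were below the vehicle arrays at 24 h, while 1 of 5 lay within them at 72 h. The difference was -1.10 ± 0.21 at 24 h, a ratio of 0.466 to vehicle (limma adjusted p = 0.000681), and -0.72 ± 0.20 at 72 h (0.0115). The 72 h call was lost without vehicle replicate 2 (-0.61, limma adjusted p = 0.0607) and with a fit to the arrays of that time only (0.0678).

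A second Kcnip2 probe set was called at 72 h only. It differed by -1.07 at 24 h, which missed the threshold (limma adjusted p = 0.0518), and by -1.35 at 72 h (0.00757). The dimmest, which reached the filter level on 1 array, was not tested. With the mean of all 3 probe sets in place of the brightest, the 24 h difference was -0.66 and missed the threshold (limma adjusted p = 0.0508).

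Kcnd2, which encodes the Kv4.2 pore, was lower at the same late times. Its early groups overlapped, with 7.86, 7.74 and 7.61 against 8.16, 8.05, 7.81, 7.90 and 7.87 at 1 h and 6.90, 7.57 and 7.43 against 7.57, 7.70, 7.55 and 7.44 at 3 h. Vehicle levels at 24 h were 8.09, 8.27 and 7.93, and isoproterenol levels were 6.94, 6.94, 8.09 and 7.34. At 72 h they were 8.26, 7.55 and 8.10 against 7.79, 7.43, 6.86, 6.91 and 7.11. The highest isoproterenol array of each time lay among the vehicle arrays. The differences were -0.77 ± 0.23 at 24 h (limma adjusted p = 0.0239) and -0.75 ± 0.22 at 72 h (0.0165), after 0.22 ± 0.22 at 1 h and 0.26 ± 0.23 at 3 h, which were not called. The 24 h call was lost when vehicle replicate 1 or 2 or isoproterenol replicate 1, 2 or 4 was left out (-0.78 to -0.64, limma adjusted p 0.0505 to 0.113). The 72 h call was lost when vehicle replicate 1 or 3 or isoproterenol replicate 3 was left out (-0.68 to -0.61, limma adjusted p 0.0552 to 0.125). Both calls were also lost in a fit to the arrays of their time only and with the mean of the gene's probe sets. The other Kcnd2 probe set differed by -0.55 and -0.53 at those times and was not called.

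Kcnd3, which encodes the Kv4.3 pore, stood at 7.09, 7.28 and 7.33 in vehicle hearts at 24 h and at 6.23, 6.27, 6.94 and 6.28 in isoproterenol hearts. At 72 h it stood at 7.11, 6.97 and 6.39 against 6.57, 5.79, 5.92, 6.30 and 6.35. The groups were apart at 24 h and overlapped at 72 h. At 1 h the levels of 7.09, 6.90 and 6.79 also stood above all isoproterenol levels of 6.64, 6.62, 6.36, 6.71 and 6.48, and at 3 h the groups of 6.75, 6.82 and 6.85 and of 6.24, 7.16, 6.66 and 6.61 overlapped. The differences were -0.80 ± 0.21 at 24 h (limma adjusted p = 0.0108) and -0.64 ± 0.20 at 72 h (0.0263), with -0.36 ± 0.20 at 1 h and -0.14 ± 0.21 at 3 h not called. The 24 h call was lost without vehicle replicate 3 (-0.75, limma adjusted p = 0.0539). The 72 h call was lost when vehicle replicate 1 or 2 or isoproterenol replicate 2 or 3 was left out (-0.57 to -0.50, limma adjusted p 0.0768 to 0.180). It was also lost in a fit to the arrays of that time only. Both late calls were lost with the mean of the gene's probe sets. Among its other probe sets, 1 was called at 24 h (-0.75, limma adjusted p = 0.0419), and the dimmest differed by 0.11 at that time and was not called.

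Kcna5 encodes Kv1.5 of the ultrarapid delayed rectifier. Its levels at 72 h were 7.19, 6.27 and 6.91 in vehicle hearts and 6.38, 5.66, 5.58, 5.95 and 5.93 in isoproterenol hearts. Among the isoproterenol arrays, 4 of 5 lay below every vehicle array. The difference was -0.89 ± 0.27 (limma adjusted p = 0.0190), a call that was lost when vehicle replicate 1 (-0.69), vehicle replicate 3 (-0.83) or isoproterenol replicate 3 (-0.81) was left out (limma adjusted p 0.0563 to 0.152). At 1 h the levels of 6.95, 7.19 and 7.05 in vehicle hearts stood above all isoproterenol levels of 6.15, 6.25, 6.59, 6.75 and 6.62, a difference of -0.59 ± 0.27 that was not called (limma adjusted p = 0.346). Levels overlapped at 3 h, at 7.03, 6.44 and 7.57 against 6.34, 6.40, 5.67 and 6.85, and at 24 h, at 6.93, 6.73 and 7.16 against 6.42, 5.99, 7.25 and 6.58. The differences at 3 h (-0.70 ± 0.28) and 24 h (-0.38 ± 0.28) were not called either, although the 3 h one was without vehicle replicate 2 (-0.99, limma adjusted p = 0.0413).

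The slow and rapid delayed rectifier genes Kcnq1 and Kcnh2 were not called at any time. Kcnq1, the pore of the slow current, stood at 8.50, 8.44 and 8.74 in vehicle hearts at 24 h and at 8.03, 7.33, 8.43 and 8.11 in isoproterenol hearts. All 4 isoproterenol arrays were below the vehicle arrays, but the difference of -0.58 ± 0.22 missed the threshold (limma adjusted p = 0.0780, 95% interval -1.03 to -0.14). At 72 h the groups overlapped, with 7.95, 8.11 and 8.12 against 8.56, 8.58, 7.89, 8.17 and 7.88, a difference of 0.15 ± 0.21. Kcnh2, the pore of the rapid current, stood at 7.30, 6.93 and 7.05 against 6.68, 6.02, 6.19 and 6.42 at 24 h. These groups did not overlap, and the difference of -0.77 ± 0.27 missed the threshold (limma adjusted p = 0.0597). It passed with a pseudocount of 64 (limma adjusted p = 0.0447), a filter at the 60th percentile (0.0434), a fit to the arrays of that time only (0.0319) or without isoproterenol replicate 1 (0.0498). At 3 h the Kcnh2 levels of isoproterenol hearts were spread widely, at 5.34, 6.87, 5.67 and 6.68 against 6.59, 7.13 and 6.71, and the difference of -0.67 ± 0.27 was called only without isoproterenol replicate 2 among the arrays left out (-0.91, limma adjusted p = 0.0263). At 72 h Kcnh2 overlapped, at 7.16, 6.88 and 7.02 against 7.16, 6.51, 6.12, 6.44 and 6.52, with a difference of -0.47 ± 0.26. The Kcnq1 difference at 24 h was called only without isoproterenol replicate 3 (-0.74, limma adjusted p = 0.0198).

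Kcnj11 encodes Kir6.2, the pore of the channel that opens when ATP falls, and its brightest probe set was called at 3, 24 and 72 h. At 3 h it stood at 9.90, 9.56 and 9.98 in vehicle hearts and at 8.63, 8.69, 9.04 and 8.75 in isoproterenol hearts. At 24 h the levels were 10.26, 10.07 and 10.25 against 9.13, 8.57, 9.69 and 9.04. At 72 h they were 10.16, 9.85 and 9.98 against 9.95, 8.71, 8.53, 9.14 and 9.03. The groups were apart at 3 and 24 h, and at 72 h only isoproterenol replicate 1 reached the vehicle levels. Kcnj11 fell by 1.04 (SE 0.23, 0.488 of vehicle, limma adjusted p = 0.00226) at 3 h, by 1.09 (SE 0.23, 0.471 of vehicle, 0.00171) at 24 h and by 0.92 (SE 0.22, 0.527 of vehicle, 0.00333) at 72 h, after a difference of -0.17 ± 0.22 at 1 h. At 1 h its groups overlapped, at 9.52, 9.82 and 9.96 against 9.82, 9.44, 9.70, 9.63 and 9.40. All 3 calls held without any 1 array of their time (limma adjusted p at most 0.0308).

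The name of that Kcnj11 probe set carries the suffix _s_at, which marks probes that can match more than 1 transcript. A second Kcnj11 probe set without that suffix was called at the same 3 times, at -1.02, -1.02 and -1.03. The dimmest was called at 72 h (-1.08, limma adjusted p = 0.00658) and not at 3 h (-0.84, 0.0570) or 24 h (-0.43, 0.392). Kcnj2, which encodes Kir2.1 of the resting inward rectifier current, was dim, reaching the filter level on 7 of 30 arrays. Its levels lay between 4.14 and 5.62, its groups overlapped at every time, and no difference was called (-0.10 ± 0.30, -0.70 ± 0.32, -0.0034 ± 0.32 and -0.49 ± 0.30). Its 95% interval at 24 h ran from -0.65 to 0.65.

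Kcnk3 encodes TASK-1, an acid-sensitive background channel. At 72 h it stood at 9.82, 9.42 and 9.90 in vehicle hearts and at 9.33, 8.57, 7.93, 8.26 and 8.86 in isoproterenol hearts. The groups did not overlap, and the difference was -1.12 ± 0.22, or 0.459 of vehicle (limma adjusted p = 0.000652). That call held without any 1 array of the time (limma adjusted p at most 0.00986). At 3 h the levels of 9.64, 9.21 and 9.76 in vehicle hearts stood above 8.71, 8.79, 9.09 and 9.0, and the difference of -0.64 ± 0.23 missed the threshold (limma adjusted p = 0.0737) except in a fit to the arrays of that time only (0.0421). At 1 h the groups overlapped, at 8.85, 9.14 and 9.03 against 9.25, 8.79, 9.39, 9.48 and 9.30. At 24 h they overlapped too, at 9.16, 8.50 and 9.18 against 8.62, 8.59, 8.85 and 8.22 (-0.37 ± 0.23, limma adjusted p = 0.334). Isoproterenol means were alike at 24 h (8.57) and 72 h (8.59), while vehicle means were 8.94 and 9.71. A second Kcnk3 probe set was called at 3 h (-1.51, limma adjusted p = 0.0134) and 72 h (-1.17, 0.0356) and differed by -0.12 at 24 h. The dimmest Kcnk3 probe set reached the filter level on 6 arrays and was not called.

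Kcnk2 encodes TREK-1, a background channel opened by membrane stretch, and its brightest probe set had the largest differences of the 10 genes at 24 and 72 h. Levels at 1 h were 7.73, 8.24 and 8.05 against 8.06, 8.02, 8.01, 8.02 and 8.0, and at 3 h 8.17, 7.58 and 8.0 against 7.48, 8.15, 7.71 and 8.05. The groups overlapped at both times. At 24 h vehicle hearts stood at 8.41, 8.24 and 8.62 and isoproterenol hearts at 6.76, 5.82, 7.55 and 6.91. At 72 h they stood at 8.27, 8.26 and 8.01 against 7.82, 6.48, 5.70, 7.09 and 7.07. Every isoproterenol array lay below every vehicle array at both late times. Kcnk2 fell by 1.66 (SE 0.32, 0.316 of vehicle, limma adjusted p = 0.000714) at 24 h and by 1.34 (SE 0.30, 0.394 of vehicle, 0.00227) at 72 h, and both calls held without any 1 array of their time (limma adjusted p at most 0.0171). The other Kcnk2 probe set reached the filter level on 3 arrays and differed by 0.06 at 24 h and 0.09 at 72 h, uncalled.

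**Figure D2:**
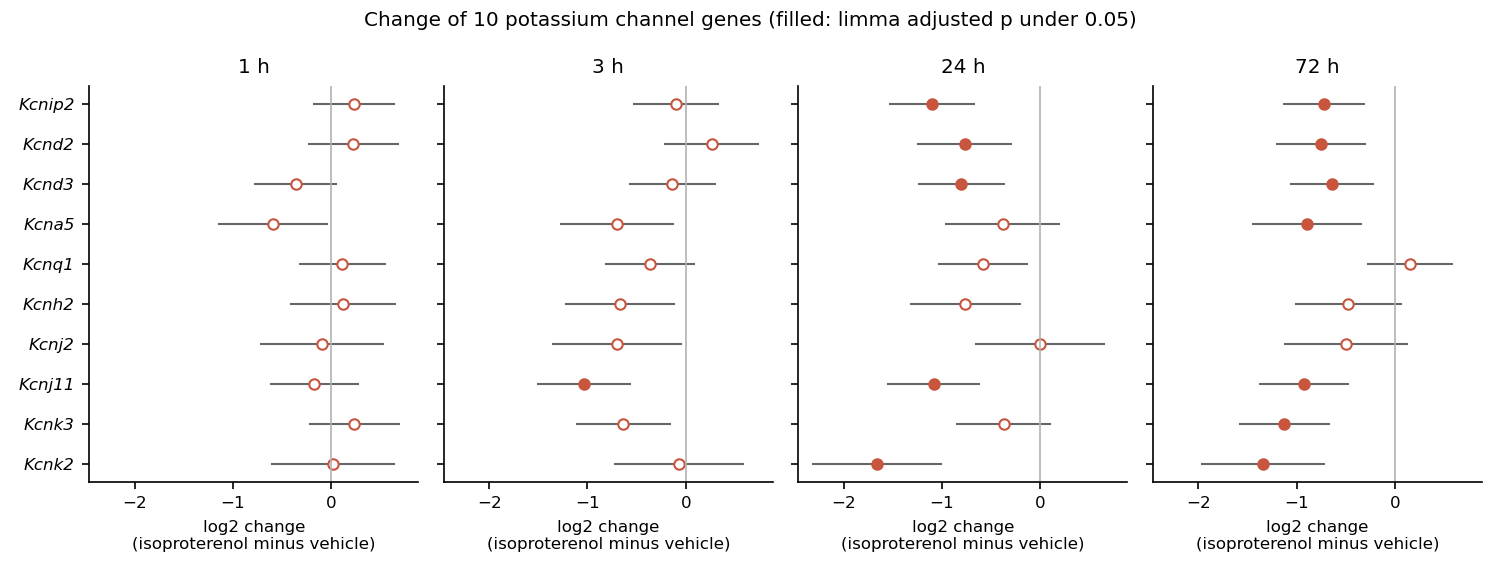
Log2 difference, isoproterenol minus vehicle, of each gene's brightest probe set (horizontal axis) at 1, 3, 24 and 72 h, with bars for the 95% interval and filled circles for limma adjusted p under 0.05. The filled circles number 0, 1, 5 and 7 in order of time, all left of 0.

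The 2 genes of the set whose effect differed between 3 and 24 h were Kcnip2 (-1.0 ± 0.30, limma adjusted p = 0.0360) and Kcnk2 (-1.59 ± 0.45, 0.0286). Of all genes, 3.49% had a more negative effect at 24 h than at 3 h by this test. Kcnd2 missed it (-1.03 ± 0.33, limma adjusted p = 0.0506). The Kcnip2 difference was lost without any 1 of 10 of the 14 arrays, namely all but vehicle 3 h replicate 3, vehicle 24 h replicate 1, isoproterenol 3 h replicate 4 and isoproterenol 24 h replicate 3 (limma adjusted p 0.0511 to 0.115 where lost). That of Kcnk2 was lost without vehicle 3 h replicate 2, vehicle 24 h replicate 3, isoproterenol 3 h replicate 2 or isoproterenol 24 h replicate 2 (0.0548 to 0.0879). Without isoproterenol 24 h replicate 3 the difference was -1.22 for Kcnip2 (limma adjusted p = 0.00356), -1.85 for Kcnk2 (0.00571) and -1.29 for Kcnd2 (0.00449), which then passed, as it did without vehicle 3 h replicate 3 (0.0471), with a filter at the 60th percentile (0.0386) and with a robust variance estimate (0.0467). No gene of the set had an effect that differed between 1 and 3 h or between 24 and 72 h, against 0.731% and 2.71% of all genes.

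**Figure D3:**
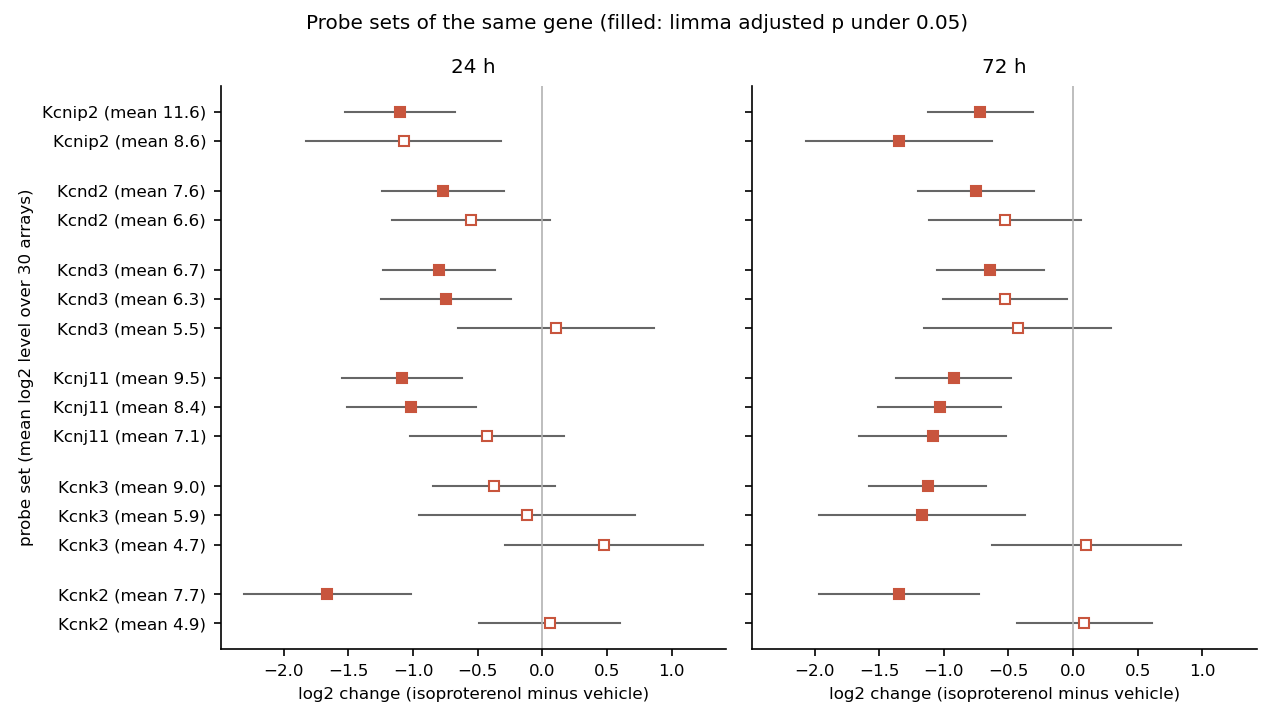
Log2 difference, isoproterenol minus vehicle (horizontal axis), of every tested probe set of the 6 genes with more than 1 probe set, at 24 and 72 h, with bars for the 95% interval and filled squares for limma adjusted p under 0.05. Labels give each probe set's mean level over the 30 arrays, and the dimmest probe sets of Kcnd3, Kcnk3 and Kcnk2, with means of 5.5, 4.7 and 4.9, are not filled.

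Counted by probe set, 0, 3, 7 and 11 of the 19 tested were called in order of time, all lower, against 0.815%, 5.28%, 5.71% and 8.46% of all 24292 probe sets. The 10 genes also varied together between arrays of the same group. Pairs of other genes were not set beside theirs, so this is not shown to be particular to the set. Over deviations from group means on 30 arrays, which share each array's normalization and RNA, the correlation between pairs of the 10 genes had a median of 0.45, a range of -0.18 to 0.85, and was over 0 for 44 of 45 pairs. Isoproterenol replicate 3 at 24 h was the highest of its group in 9 of the 10 genes, and isoproterenol replicate 1 at 72 h in 9 of 10. Leaving out an array picked for its high levels makes most differences more negative by construction. Without isoproterenol replicate 3, 6 genes were called lower at 24 h, with differences of -1.32 for Kcnip2, -1.02 for Kcnd2, -0.97 for Kcnd3, -0.74 for Kcnq1, -1.28 for Kcnj11 and -1.92 for Kcnk2. That count was 4 without isoproterenol replicate 2 or 4 or any 1 vehicle array of 24 h, and 5 without isoproterenol replicate 1. Without isoproterenol replicate 1, the same 7 genes were called at 72 h, with differences of -0.89 for Kcnip2, -0.89 for Kcnd2, -0.74 for Kcnd3, -1.01 for Kcna5, -1.14 for Kcnj11, -1.31 for Kcnk3 and -1.59 for Kcnk2.

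**Figure D4:**
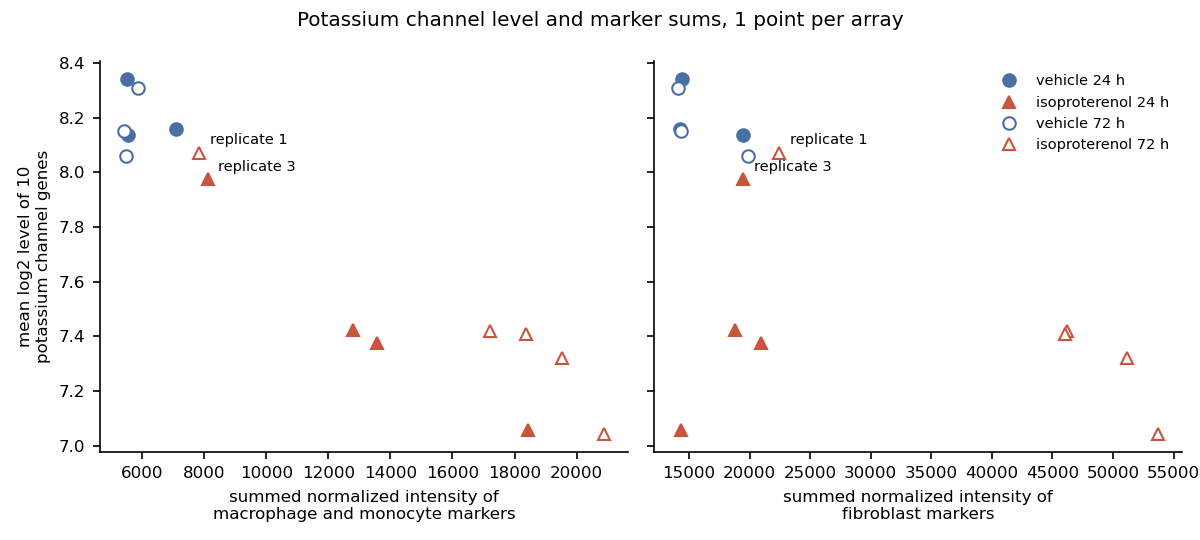
Mean log2 level of the 10 genes (vertical axis) against the summed normalized intensity of macrophage and monocyte markers (left) and fibroblast markers (right) on the arrays of 24 h (filled) and 72 h (open). Isoproterenol 24 h replicate 3 and 72 h replicate 1 have mean levels of 7.98 and 8.07 and the lowest macrophage sums of their groups, 8113 and 7830.

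The same arrays stood apart in markers of other cells. The summed normalized intensity of 15 macrophage and monocyte markers was 5511 to 7093 in vehicle hearts at 24 h and 12806, 18429, 8113 and 13572 in isoproterenol hearts, where 11 of 15 markers were called higher. At 72 h it was 5407 to 5858 in vehicle hearts and 7830 in isoproterenol replicate 1 beside 17211 to 20895 in the others, with 14 of 15 called higher. Sums of 8 fibroblast markers at 72 h were 14057 to 19876 in vehicle hearts, 22435 in isoproterenol replicate 1 and 46009 to 53716 in the others, with 6 of 8 called higher. Sums of 15 cardiomyocyte markers, which lie near the top of the intensity scale, were 120210 to 123923 against 106390 to 122407 at 24 h and 117149 to 120429 against 109449 to 125338 at 72 h. All of the macrophage, fibroblast and cardiomyocyte markers counted here were bright enough to test. Among the cardiomyocyte markers 1 was called higher and 2 lower at 24 h, and 1 higher and 1 lower at 72 h. At 3 h, when Kcnj11 was called, 4 of 5 neutrophil markers were called higher, with sums of 120 to 237 in vehicle and 474 to 685 in isoproterenol hearts, and 3 of 7 endothelial markers lower, with sums of 4334 to 5067 and 3436 to 4162. Also at 3 h, 2 of 15 macrophage markers, 1 of 8 fibroblast, 1 of 5 nerve and 1 of 4 conduction markers were called higher, and 2 of 7 smooth muscle and pericyte and 1 of 7 skeletal muscle markers lower, with none of 15 cardiomyocyte or 6 atrial markers called. At 24 h, 1 of 5 neutrophil and 1 of 5 nerve markers were called higher, 1 of 7 endothelial markers lower, and 1 of 8 fibroblast and 1 of 6 atrial markers each way. At 72 h, 1 of 6 atrial and 4 of 7 smooth muscle and pericyte markers were called higher, 2 of 2 erythroid and 1 of 7 endothelial markers lower, and 1 of 7 skeletal muscle markers each way. Of all genes, 6.94%, 10.0% and 13.3% were called higher at 3, 24 and 72 h, and 6.33%, 7.19% and 8.71% lower. Beside these shares, a count of 1 in such short lists says little about those cells. The part of other cells in the channel differences was not tested. With each array set relative to its cardiomyocyte markers, an alternative chosen after seeing the data, 1, 5 and 7 genes of the set were called lower at 3, 24 and 72 h. The mean log2 level of these markers was 12.95 in vehicle and 12.89 in isoproterenol hearts at 24 h, and 12.89 and 12.90 at 72 h. The step therefore moved the differences little, and it cannot show the part of other cells.

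The mean log2 level of 6 atrial markers was higher in vehicle 24 h replicate 2 (9.23), vehicle 72 h replicate 2 (8.16) and isoproterenol 72 h replicate 1 (9.09) than in the other arrays of those groups, which lay between 6.77 and 7.50. Among isoproterenol arrays of 1 h the highest such level was 8.56, beside a group mean of 7.25. RNA quality was read from beta-actin probe sets, as the level at the 3′ end less that at the 5′ end, which grows as RNA breaks down. It was 1.69 ± 0.23 (SD, n = 3) in vehicle and 1.06 ± 0.21 (SD, n = 4) in isoproterenol hearts at 24 h, and 1.35 ± 0.56 (SD, n = 3) and 1.35 ± 0.22 (SD, n = 5) at 72 h. At the early times it was higher in isoproterenol hearts, at 1.56 ± 0.03 (SD, n = 3) against 1.85 ± 0.18 (SD, n = 5) at 1 h and 1.28 ± 0.60 (SD, n = 3) against 1.91 ± 0.13 (SD, n = 4) at 3 h. The same measure from Gapdh had higher means in isoproterenol hearts at 24 h (0.348 against 0.415) and 72 h (0.358 against 0.420). Their part in the results was not tested.

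The scaling of the arrays bears on every call. As deposited, isoproterenol arrays were brighter than vehicle arrays by a median over all probe sets of 0.47 at 24 h and 0.36 at 72 h. At the early times they were dimmer, with a median difference of -0.23 at 1 h and -0.19 at 3 h. Without normalization no gene of the set was called at any time, 6 and 8 of 10 differences were negative at 24 and 72 h, and their medians were -0.16 and -0.30. Kcnk2 differed by -1.09 at 24 h (limma adjusted p = 0.0735) and Kcnj11 by -1.12 at 3 h (0.141) on that scale. With arrays centred on their medians, 1, 4 and 4 genes of the set were called lower at 3, 24 and 72 h, where Kcnd2 at both late times and Kcnd3 and Kcnj11 at 72 h were not called (limma adjusted p 0.0507 to 0.164).

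Other potassium channel genes were called at rates that can be read against those of all genes. Of 58 such genes listed for comparison, 40 were tested, and their calls were 1 higher and 1 lower at 1 h, 2 and 3 at 3 h, 2 and 3 at 24 h, and 6 and 2 at 72 h. The shares of all genes called higher and lower were 2.37% and 1.04% at 1 h, 6.94% and 6.33% at 3 h, 10.0% and 7.19% at 24 h, and 13.3% and 8.71% at 72 h, and most of these counts lie near them. Their median differences were 0.10, -0.13, -0.06 and -0.03. Kcne4, an accessory subunit that restrains Kv7 and Kv1 channels, was higher at 1 h (1.46 ± 0.23, limma adjusted p = 0.000104), 3 h (1.04 ± 0.25, 0.00424) and 72 h (1.33 ± 0.23, 0.000199). Kcna4, the pore of the slow transient outward current, was lower at 3 h (-1.03 ± 0.24, 0.00443), where the calcium-activated channel gene Kcnn3 was also lower (-1.04 ± 0.27, 0.0104) and the accessory subunit gene Kcnmb4 higher (1.07 ± 0.21, 0.000786).

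At 24 h the calcium-activated channel gene Kcnn4, known from leukocytes and other non-excitable cells, was higher by 2.12 ± 0.26 (limma adjusted p = 3.43e-06). The beta subunit gene Kcnab2 was higher by 1.42 ± 0.32 at 24 h (0.00339) and 1.50 ± 0.31 at 72 h (0.000914), and Kcna2, a Kv1 pore, was lower at 24 h by -1.66 ± 0.31 (0.000646). Abcc8, which encodes a sulfonylurea receptor that can pair with Kir6.2, as can that of Abcc9, was lower at 72 h (-0.67 ± 0.20, limma adjusted p = 0.0160). Kcns3 was higher at 72 h (0.69 ± 0.19, 0.0100) and Kcnj15 lower at 1 h (-0.84 ± 0.20, 0.0143). Calls were lost for Abcc8 without vehicle 72 h replicate 1 or 3, for Kcns3 without vehicle 72 h replicate 1, for Kcnj15 without vehicle 1 h replicate 1 or 2 and for Kcnn3 without vehicle replicate 3 or isoproterenol replicate 4 of 3 h (limma adjusted p 0.0545 to 0.135). In a fit to the arrays of 3 h only, Kcnn3 (limma adjusted p = 0.0946) and Kcna4 (0.0567) were not called. Without normalization, Kcne4 at 1 and 3 h, Kcnj15, Kcnmb4, Kcnn3, Kcna4 and Abcc8 kept their direction and were not called (limma adjusted p 0.0618 to 0.923). With median centring Abcc8 was not called (0.244).

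**Figure D5:**
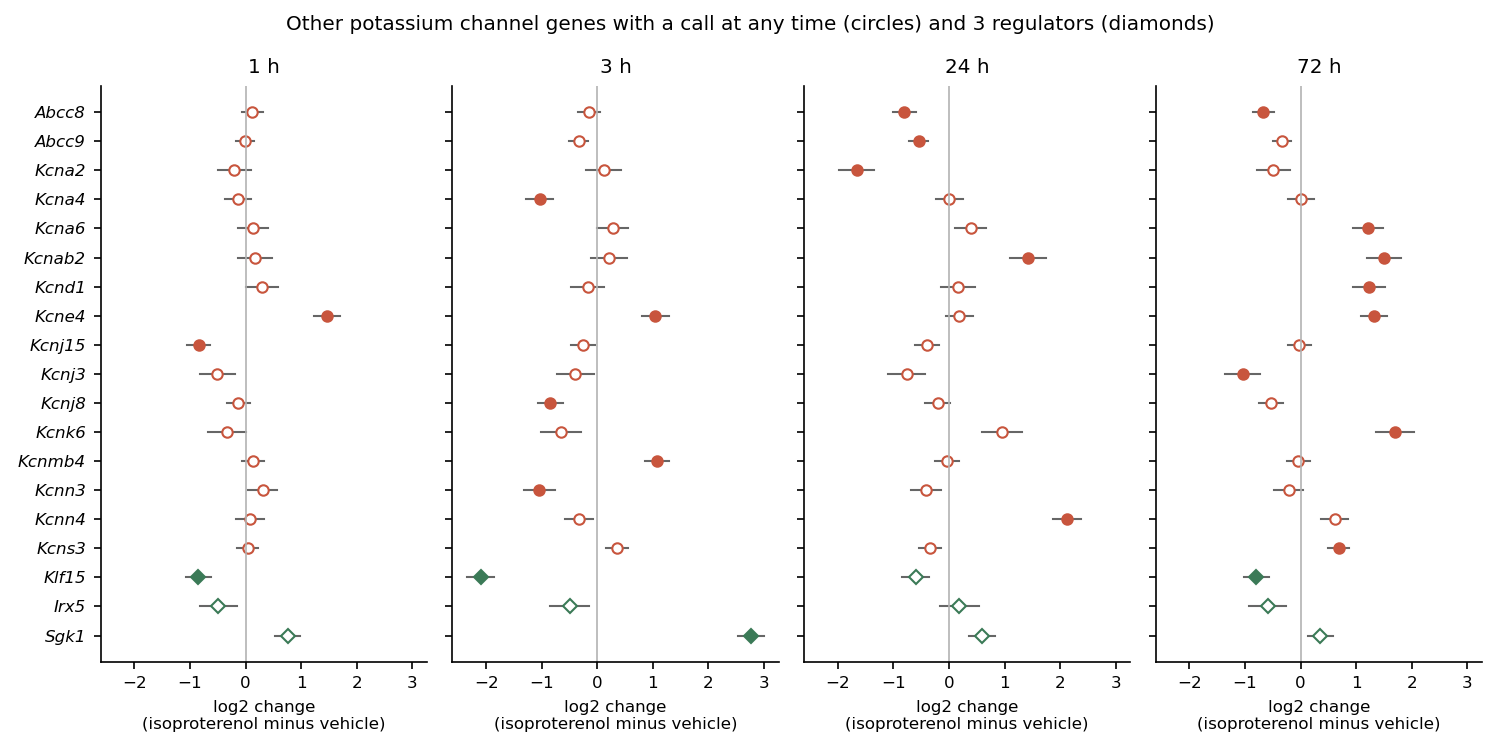
Log2 difference, isoproterenol minus vehicle (horizontal axis), at 1, 3, 24 and 72 h for the other potassium channel genes called at any time (circles) and for Klf15, Irx5 and Sgk1 (diamonds), with bars of 1 SE and filled symbols for limma adjusted p under 0.05. Kcne4, Kcnn4 and Kcnab2 lie right of 0 where filled and Klf15 left of 0.

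Of 11 regulators and partners of these channels, 0, 2, 0 and 1 were called higher and 1, 4, 1 and 1 lower in order of time. The share of all genes called lower was 1.04%, 6.33%, 7.19% and 8.71%, so that the single lower calls at 24 and 72 h lie near it. The share called higher was 2.37%, 6.94%, 10.0% and 13.3%, and the higher counts at 1, 24 and 72 h are not above it. Klf15, a Krüppel-like factor that drives Kcnip2 in a daily rhythm, fell by 2.10 (SE 0.24, limma adjusted p = 1.81e-07) at 3 h, with differences of -0.85 ± 0.23 at 1 h (0.0379), -0.60 ± 0.24 at 24 h (0.104) and -0.79 ± 0.23 at 72 h (0.0152). Its effect differed between 3 and 24 h (1.50 ± 0.34, limma adjusted p = 0.00712). The 1 h call was lost when any 1 vehicle array or isoproterenol replicate 3, 4 or 5 was left out (limma adjusted p 0.0631 to 0.240). The 72 h call was lost when vehicle replicate 1 or 3 or isoproterenol replicate 3 was left out (limma adjusted p 0.0532 to 0.123) and with arrays centred on their medians (0.141). Sgk1, a kinase that raises the membrane density of several channels, rose by 2.76 (SE 0.24, limma adjusted p = 5.81e-10) at 3 h and differed by 0.75 at 1 h (0.0699), 0.60 at 24 h (0.0944) and 0.36 at 72 h (0.303). Sgk1 also differed among the vehicle groups (limma F test, adjusted p = 0.0293).

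Irx5, a homeobox repressor of Kcnd2, was not called at any time (-0.49, -0.50, 0.18 and -0.59). Its relative Irx4, a ventricular homeobox factor, was lower at 3 h (-1.23 ± 0.20, limma adjusted p = 6.49e-05) and higher at 72 h (0.75 ± 0.19, 0.00667), the latter lost without vehicle 72 h replicate 3 (0.0722). Irx3 (-1.21, limma adjusted p = 0.0383) and Nfatc3 (-0.47, 0.0174) were lower and Nfkb1 (0.53, 0.0474) higher at 3 h, and the anchoring protein gene Akap9 was lower at 24 h (-0.65, 0.0352). Irx3, Nfkb1 and Akap9 were each lost without any 1 of 6 of the 7 arrays of their time, all but isoproterenol replicate 4 for Irx3, vehicle replicate 2 for Nfkb1 and isoproterenol replicate 3 for Akap9 (limma adjusted p 0.0555 to 0.240). Nfatc3 was lost when vehicle replicate 2 or isoproterenol replicate 3 was left out (limma adjusted p 0.0553 to 0.117).

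Clock genes were listed because Klf15 and several channel genes follow the time of day. Of 15 tested, 2, 3, 0 and 0 were called higher and 1, 4, 1 and 1 lower in order of time. Of all genes, 2.37%, 6.94%, 10.0% and 13.3% were called higher and 1.04%, 6.33%, 7.19% and 8.71% lower, so that the counts of clock genes at 24 and 72 h are not above that share. Nr1d1, a repressor of the clock, was lower at 3 h (-1.19 ± 0.20), 24 h (-1.05 ± 0.20) and 72 h (-0.88 ± 0.19), with limma adjusted p of 8.39e-05, 0.000700 and 0.00153. Dbp, a clock output factor, was lower at 3 h (-1.70 ± 0.37, limma adjusted p = 0.00182) together with Nr1d2 (-1.27 ± 0.23, 0.000280), and Bhlhe40 was higher at 1 h (1.19 ± 0.24, 0.00199) and 3 h (1.36 ± 0.25, 0.000275). Per2 (1.12 ± 0.26, limma adjusted p = 0.00422) and Cry2 (0.85 ± 0.23, 0.0137) were higher at 3 h. Per2 also differed among the vehicle groups (limma F test, adjusted p = 0.0389). At 1 h Per1 was higher (1.89 ± 0.52, 0.0393) and Dbp lower (-1.27 ± 0.35, 0.0445). Cry2 was lost without vehicle 3 h replicate 1 or 2 or isoproterenol 3 h replicate 1 (limma adjusted p 0.0644 to 0.115). Per1 was lost without any 1 array of 1 h but isoproterenol replicate 4 (limma adjusted p 0.0556 to 0.224), and Dbp at 1 h without any 1 but vehicle replicate 1 and isoproterenol replicate 3 (0.0506 to 0.347).

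For the 7 channel genes called at any time, the genes whose levels ran most like them were ranked by Pearson correlation over the 30 arrays, as a description. For Kcnip2 they were Vtn (0.928), Rbfa (0.925) and Synj2bp (0.921). For Kcnk2 they were the splicing factor gene Rbfox1 (0.949), Etfdh (0.946) of the mitochondrial electron transfer chain and the mitochondrial kinase gene Pink1 (0.940). For Kcnj11 they were Zfp532 (0.928), Klhl33 (0.923) and Lrrc14b (0.898). Kcnk3 ran with Dhdds (0.871), Nudt3 (0.866) and Mrps23 (0.844), and Kcnd3 with Afdn (0.865), Alkbh5 (0.848) and Gabrb2 (0.825). Among these 7, likeness was lower for Kcna5, with Cyp4b1 (0.816), Acsf2 (0.798) and Sesn1 (0.797), and for Kcnd2, with Cd164l2 (0.801), Slc25a13 (0.765) and Ppm1k (0.753).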

How the data were processed

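The authors deposited linear intensity values of 31099 probe sets on 30 Affymetrix RAT230_2 arrays with 1 colour. Per the labels' protocols, heart tissue was kept in RNAlater and RNA was extracted with an RNeasy kit. How the deposited intensity was summarised or scaled was not given in the sources used here. Values were taken as log2(intensity + 16) and quantile normalized, which removes a change shared by most transcripts. The 57 control probe sets were dropped, and those with a deposited intensity of at least 23, the 40th percentile, on at least 3 arrays were kept, 24292 probe sets in all. limma 3.58.1 in R 4.3.3 fitted 8 group means to all arrays with an intensity trend, and two-sided moderated tests were adjusted by the Benjamini-Hochberg method over all probe sets. Steps were tested on simulated data. Probe sets were named through platform annotation, with symbols updated by gene number for 20764. The brightest probe set stood for a gene. The genes of the set, the comparison lists and the tests were chosen with earlier results of these data known. All genes of the set are named, other listed genes by the 3 largest called rises and falls without overlap at each time, and neighbours by the 3 highest correlations. Alternatives were other pseudocounts, filters, scalings and variance estimates, a replicate block, the arrays of a time alone, the mean of a gene's probe sets and each array left out in turn.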

Additional observations from a re-analysis of the deposited data

Results flagged for a closer look

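In Kcnd3, isoproterenol replicate 3 at 24 h stood at 6.94 while the other 3 arrays of its group stood between 6.23 and 6.28, a gap that marks it as far from the others. Of the 40 groups of 4 or more arrays looked at, 1 was marked in this way, and chance marks about 1 in 20. The isoproterenol effect differed between 24 and 3 h in Kcnip2, by -1.0 (limma adjusted p = 0.0360), and in Kcnk2, by -1.59 (limma adjusted p = 0.0286). Both differences were marked by the test of the difference itself.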

How the results depend on the processing

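Of 13 calls of the 10 genes at the 4 times, 7 held without any 1 array of their time, and 5 held under every alternative but the values as deposited: Kcnj11 at 3 and 24 h, Kcnk2 at 24 and 72 h and Kcnk3 at 72 h. With arrays centred on their medians, 5 probe sets of the set were called at 72 h, Kcnip2 at 3 h was 0.065 and Kcnk2 at 1 h -0.088. Over all probe sets, the share of calls that were lower was 30.8%, 46.4%, 43.8% and 47.4% in order of time after quantile normalization, 35.9%, 32.7%, 31.6% and 23.2% after centring, and 29.5%, 38.3%, 0.549% and 1.22% as deposited. As deposited, 190 (1 h), 478 (3 h) and 2380 (72 h) probe sets were called, and of the potassium channel probe sets 1, 0 and 0 at 3, 24 and 72 h. Differences that turned sign as deposited were at 1 h Kcnd2 -0.038, Kcnq1 -0.16, Kcnh2 -0.17, Kcnk3 -0.010 and Kcnk2 -0.26, at 24 h Kcna5 0.21, Kcnq1 0.049, Kcnj2 0.20, Kcnk3 0.24 and Klf15 0.016, and at 72 h Kcnh2 0.068, none of them called in either setting. The cause was not tested. A fit to the arrays of 1 time called 1317, 1332, 2103 and 2398 probe sets in order of time, and 5 and 6 potassium channel probe sets at 3 and 72 h, with fewer samples behind each spread. The mean of a gene's probe sets gave 2 and 5 genes called lower at 24 and 72 h, with Kcnd2 at -0.13 and Kcnk2 at -0.14 at 1 h and Kcnk2 at 0.029 at 3 h. Kcnj2 at 24 h, at -0.0034, was 0.0012 with a pseudocount of 64, 9.35e-05 with one of 4 and 0.059 relative to cardiomyocyte markers. The effect at 24 h less that at 3 h was called for 1 potassium channel probe set with no filter, with median centring, as deposited and without the intensity trend, in place of 2.

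Leaving out 1 array gave 393 to 607, 1868 to 3024, 1580 to 4413 and 2416 to 5654 called probe sets in order of time, and 2 to 4, 5 to 9 and 5 to 12 potassium channel probe sets at 3, 24 and 72 h. The difference of effects between 24 and 3 h was then called for 0 to 3 of these, and that between 72 and 24 h for 0 to 1. Uncalled differences that changed sign ranged over -0.40 to 0.064 for Kcnj2 and -0.12 to 0.13 for Kcnk2 at 1 h, and over -0.30 to 0.0072 for Kcnd3 and -0.24 to 0.056 for Kcnk2 at 3 h, and over -0.021 to 0.47 for Irx5 at 24 h.

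With the replicate number as a block, Kcnd2 at 24 h (-0.73, limma adjusted p = 0.0568) and 72 h (-0.68, 0.0565) and Kcnd3 at 72 h (-0.66, 0.0505) were not called, and Kcnk2 at 1 h was -0.064. Of 12 same-numbered pairs, 2 correlated over 0.1 (r -0.07 to 0.12). With so few arrays per group, these values cannot show whether arrays of the same number shared more than that number. Dim probe sets, such as that of Kcnj2, limit what could be seen, as does the number of arrays.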
